A study of Bos taurus with 6 samples.

Results

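The genes described here encode the core proteins of the spliceosome and of its small nuclear ribonucleoproteins (snRNPs), measured in day 7 bovine blastocysts. They were chosen by name: every gene whose symbol starts with SF3A, SF3B, SNRP, SNRNP, PRPF or LSM, plus U2AF1 and U2AF2, with SNRPN left out, wherever the annotation of the Affymetrix GeneChip Bovine Genome Array gave a probe set exactly 1 symbol. The rule found 45 genes on 60 probe sets, out of 9155 genes on the 13292 probe sets with exactly 1 symbol. The array had 24016 probe sets in all, Affymetrix controls left out. Each gene was read on its probe set with the highest mean, and U2AF2 was not among the 45.

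The 6 arrays held Simmental blastocysts in 2 groups of 3. The superovulated arrays held blastocysts that had stayed until day 7 in superovulated, artificially inseminated heifers. The synchronized arrays held embryos from donors that had been superovulated and inseminated in the same way, flushed at the 2-cell stage on day 2 and moved by endoscope into recipients that were synchronized but not superovulated, where they stayed until day 7. All embryos on both sides therefore came from superovulated donors, and only the synchronized ones were flushed early and transferred. The comparison asked how the oviductal environment bears on the transcripts of the blastocyst. The labels do not say how many embryos or animals went into an array or whether replicate arrays held embryos of different animals, so p-values measure array-to-array spread, part of which may be technical.

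The spliceosome removes introns from pre-mRNA. The U1 snRNP recognises the 5′ splice site, U2AF and the U2 snRNP recognise the 3′ splice site and the branch point, and the U4/U6.U5 tri-snRNP then joins before the catalytic centre forms. The U1, U2, U4 and U5 snRNAs carry a ring of Sm proteins and U6 carries a related ring of LSm proteins. A preimplantation embryo splices the transcripts of its own newly activated genome with this machinery, after a start on proteins and mRNAs left by the oocyte.

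Signals are given as log2, each difference is the superovulated mean less the synchronized mean of those log2 signals, and group means carry their SD over 3 arrays (n = 3). The signal medians of the arrays lay between 2.75 and 2.8, and a mean above log2 4 was taken as clearly above background. Between 1457 and 1894 probe sets exceeded log2 4 on superovulated arrays, against 973 to 1850 on synchronized arrays, lowest on synchronized array 1. In the 1406 probe sets (5.85%) above that level, differences had a median of 0.59, against -0.02 over all probe sets. That median was 0.10 after a second quantile normalization of the arrays. Spiked bacterial hybridization controls averaged 12.33 ± 0.02 on superovulated and 12.89 ± 0.37 on synchronized arrays, and the 3′ signal of GAPDH exceeded its 5′ signal by 6.04 to 6.18 log2 units on superovulated arrays and by 4.57 to 5.75 on synchronized arrays. Both of these measures moved with the groups. The same 3′ less 5′ signal for actin overlapped, at -0.08 to -0.01 on superovulated arrays and -0.09 to 0.3 on synchronized arrays. The part of these measures in the differences below was not tested. Of the blastocyst markers, the trophectoderm keratin KRT18 averaged 7.94 ± 0.19 in the superovulated and 4.04 ± 0.74 in the synchronized group, whereas KRT8 lay between 2.27 and 2.30 on all arrays. The mean over 7 measured trophectoderm markers was 3.996 to 4.14 on superovulated and 2.72 to 3.10 on synchronized arrays, and only KRT18 of the 7 had a mean above log2 4. The 3 measured inner cell mass markers averaged 3.53 to 3.79 on superovulated and 2.81 to 3.05 on synchronized arrays. Of these, KLF4 (5.10 ± 0.38 in the superovulated and 3.78 ± 0.26 in the synchronized group) and POU5F1 (3.40 ± 0.15 in the superovulated and 2.59 ± 0.17 in the synchronized group) were higher on every superovulated array, and SOX2 lay between 2.40 and 2.44. All 9 measured blood markers and all 6 measured oviduct markers had means below log2 4. In these bulk samples, fewer cells of a type and less RNA per cell cannot be told apart.

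No spliceosome gene passed the test over all probe sets. At an adjusted p below 0.05 in limma, 0 of the 45 genes were higher and 0 lower in the superovulated group, where 0.695% of all probe sets were higher and 0.0208% lower. At an unadjusted p below 0.05, 9 genes (20%) were higher and 0 lower, beside 4.56% and 2.09% of all probe sets. Of these 9, 4 had a mean above log2 4, a level that 17.8% of the 45 genes and 5.85% of all probe sets exceeded. A looser threshold, an adjusted p below 0.3 with a difference of at least 1 log2 unit, was passed by 4 genes (8.89%), all higher: SNRNP40, LSM4, SF3B6 and SNRNP70. The share of all probe sets was 1.79% higher and 0.104% lower, and among probe sets with a mean above log2 4 it was 22.5% higher. Of the 8 spliceosome genes with such a mean, 2 (25%) passed, close to that share. Over all 45 genes the median difference was 0.11, with 28 differences above 0 and 17 below, from -0.79 for SF3B1 to 1.89 for SNRNP40.

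The differences varied with signal level. Only 8 of the 45 (17.8%, beside 5.85% of all probe sets) had a mean above log2 4, namely SF3A2, SNRPC, SNRPG, LSM3, SNRNP40, LSM4, SF3B4 and SNRPA1, and their median difference was 0.87, beside 0.59 for all probe sets of that brightness. In 4 of these 8 (50%) every superovulated array lay above every synchronized array, against 42.5% of all probe sets in the same range, and in 0 of them below, against 3.98%. Another 25 genes had means above log2 3 and up to 4, with a median of 0.14. Of these, 8 (32%) had every superovulated array above every synchronized one, against 8.38% of probe sets in that range, and 0 lay below, against 9.76%. The other 12 genes had means up to log2 3 and a median of 0.01, and all 12 overlapped between the groups, where 1.04% of such probe sets were apart with higher and 7.5% with lower superovulated values. Over all 45 genes, 12 (26.7%) were apart and higher, against 5.42% of all probe sets, and 0 were apart and lower, against 7.89%.

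**Figure D1:**
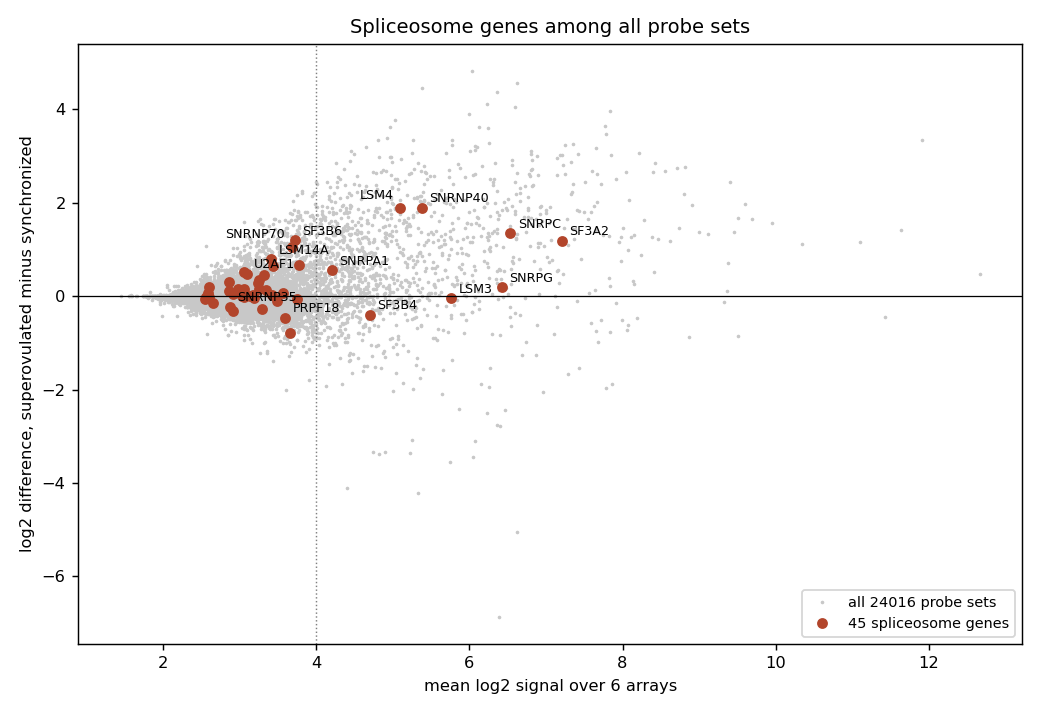
Mean log2 signal over 6 arrays (x axis) against the log2 difference, superovulated minus synchronized (y axis), for all 24016 probe sets in grey and the 45 spliceosome genes in red; the dotted line marks log2 4. Most spliceosome genes sit left of the line, close to 0, and the 8 genes right of it run from -0.40 for SF3B4 to 1.89 for SNRNP40.

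The Sm ring, the heptamer that every major snRNP but U6 carries, was represented by SNRPG, SNRPB, SNRPD2 and SNRPD3. SNRPG read, on replicates 1 to 3 in order as for every gene given array by array, 6.54, 6.54 and 6.48 on superovulated arrays and 5.26, 6.93 and 6.81 on synchronized arrays. The superovulated values lay within 0.06 of each other, and synchronized array 1 stood low while the other synchronized arrays were above all superovulated ones. Its difference was 0.19 (95% interval -1.06 to 1.43, adjusted p = 0.819 in limma), and it was -0.35 without synchronized array 1. SNRPB read 3.16, 3.46 and 4.02 in the superovulated group and 3.15, 3.04 and 3.07 in the synchronized group, apart by 0.01 log2 units at the nearest and close to background. SNRPD2 differed by 0.29 and SNRPD3 by -0.02.

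In the U1 snRNP, which pairs with the 5′ splice site, both SNRPC and SNRNP70 were higher on every superovulated array. The same held for 42.5% of probe sets with a mean above log2 4, the range of SNRPC. For means above log2 3 and up to 4, the range of SNRNP70, it held for 8.38%. SNRPC encodes the zinc finger protein that steadies the pairing of U1 with the splice site. It read 6.93, 7.29 and 7.41 on superovulated arrays and 5.19, 6.75 and 5.64 on synchronized arrays, and its difference of 1.35 (2.55-fold, 95% interval 0.23 to 2.47) had an adjusted p of 0.583 in limma. Synchronized array 2 lay within 0.18 of the lowest superovulated array, so most of the distance came from synchronized arrays 1 and 3. Without synchronized array 2 the difference was 1.795 and the adjusted p 0.0903, whereas it was 0.36 after the second quantile normalization and 0.73 with arrays centred on their bright probe sets.

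SNRNP70, whose product binds a stem-loop of U1 snRNA, read 4.30, 4.38 and 3.94 on superovulated arrays and 2.90, 3.44 and 3.14 on synchronized arrays. The difference was 1.05 ± 0.19 (SE, 2.07-fold, adjusted p = 0.143 in limma), with a synchronized mean of 3.16 near background, where the size of a difference is uncertain. The 2 other U1 members did not separate. SNRPA differed by 0.11, and PRPF39, whose yeast homologue is a U1 protein, differed by -0.06 with all arrays between 3.57 and 3.93.

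The U2 group was the largest, with 11 genes, and its differences ran both ways. It covers SNRPA1 and SNRPB2, which sit on U2 snRNA itself, and the SF3A and SF3B complexes, which hold the branch point region. The median difference was 0.19, with 6 differences above 0 and 5 below. In 3 genes (27.3%), SF3A2, SF3B6 and SF3A1, every superovulated array lay above every synchronized one, beside 5.42% of all probe sets. SF3A2 has a mean above log2 4, where 42.5% of probe sets were apart in this way. SF3B6 and SF3A1 have means above log2 3 and up to 4, where the share was 8.38%. SF3A1 was apart by 0.13 at the nearest, with synchronized arrays near background at 2.75 to 2.82.

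SF3A2, a subunit of the SF3A complex, read 7.43, 7.99 and 8 on superovulated arrays and 6.55, 5.97 and 7.34 on synchronized arrays. The groups were apart by 0.09 at the nearest, and the difference was 1.19 (2.28-fold, 95% interval 0.17 to 2.20, adjusted p = 0.618 in limma). It was 0.13 after the second quantile normalization and 0.565 with arrays centred on bright probe sets. This probe set is of the type whose probes match several transcripts, and a second SF3A2 probe set, with a mean of 3.85, differed by 0.13.

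SF3B6, the small protein that lies next to the branch point adenosine, read 4.75, 4.17 and 4.03 on superovulated arrays and 2.83, 2.98 and 3.55 on synchronized arrays. Its difference was 1.20 ± 0.28 (SE, 2.29-fold, adjusted p = 0.294 in limma), again with a synchronized mean near background (3.12). A second SF3B6 probe set lay between 2.90 and 3.05 on all arrays and went the other way, by -0.10, with every superovulated array below every synchronized one.

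SF3B4, an RNA-binding subunit of SF3B, was the bright gene with the lowest difference. It read 4.54, 4.45 and 4.53 on superovulated arrays and 5.17, 4.54 and 5 on synchronized arrays, with a shared value of 4.54 and a difference of -0.40 (95% interval -0.84 to 0.05, adjusted p = 0.636 in limma). SNRPA1, which binds U2 snRNA together with SNRPB2, read 3.97, 4.37 and 5.10 on superovulated arrays and 3.22, 4.42 and 4.13 on synchronized arrays, so the groups overlapped around a difference of 0.56.

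SF3B1, the subunit that clamps the branch helix, was chosen after its values were seen because it had the lowest difference of all 45 genes. It read 3.15, 3.20 and 3.44 on superovulated arrays and 3.15, 4.93 and 4.07 on synchronized arrays, a difference of -0.79 (95% interval -1.99 to 0.42) that rested on synchronized arrays 2 and 3. Its other 3 probe sets differed by 0.16, -0.22 and 0.10. The remaining U2 genes had means between 2.60 and 3.30. SF3A1 differed by 0.51, SF3B3 by 0.35, SF3B2 by 0.19, SF3B5 by -0.0033, SNRPB2 by -0.05 and SF3A3 by -0.28. SF3B5 was the flattest of all, between 3.01 and 3.04 on the 6 arrays. U2AF1, the U2AF subunit that reads the AG at the end of the intron, read 3.03, 3.96 and 3.01 on superovulated arrays and 2.93, 2.79 and 2.84 on synchronized arrays, with 1 superovulated array making most of its difference of 0.48.

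Among 9 tri-snRNP genes, the 3 SNRNP genes (33.3%) were apart between the groups and the PRPF genes were not. Of all probe sets 5.42% were apart and higher, and 42.5% of those with a mean above log2 4, as SNRNP40 had. For means above log2 3 and up to 4, as SNRNP27 and SNRNP200 had, the share was 8.38%. SNRNP40, a WD-repeat protein of the U5 snRNP, read 6.51, 6.52 and 5.93 on superovulated arrays and 4.21, 3.97 and 5.11 on synchronized arrays. The nearest arrays were 0.82 apart, a gap exceeded among the 45 genes only by the 0.90 of LSM4. The difference, 1.89 ± 0.36 (SE), was 3.71-fold (95% interval 0.97 to 2.81 on the log2 scale, adjusted p = 0.167 in limma), and it ranged from 1.66 to 2.23 with each array left out in turn.

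SNRNP27 and SNRNP200 were named after their values were seen. SNRNP27, a small tri-snRNP protein, read 4.17, 3.86 and 4.26 on superovulated arrays and 3.40, 3.71 and 3.20 on synchronized arrays (difference 0.66, adjusted p = 0.389 in limma). SNRNP200, the helicase that unwinds U4 from U6, read 3.30, 4.06 and 3.91 on superovulated arrays and 3.04, 3.24 and 3.07 on synchronized arrays (difference 0.64, adjusted p = 0.636 in limma). Their means over all arrays were 3.77 and 3.44, close to background.

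The 6 PRPF genes of the tri-snRNP gave little signal, with means between 2.85 and 3.49. PRPF8, the scaffold at the centre of the spliceosome, differed by 0.15, PRPF6, which bridges U5 and U4/U6, by -0.02, PRPF31, which binds U4, by 0.16, the partners PRPF3 and PRPF4 by 0.31 and -0.10, and the kinase gene PRPF4B by -0.0033. A second PRPF8 probe set, between 2.63 and 2.8, differed by -0.09 with all superovulated arrays below all synchronized ones. These probe sets were near background, so they give no measure of whether the transcripts differ.

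Of the 8 LSm ring genes, a single member (12.5%) was apart and higher, beside 5.42% of all probe sets. That member, LSM4, has a mean above log2 4, where 42.5% of probe sets were apart in this way. LSM2 to LSM8 make the ring on U6 snRNA in the nucleus, and LSM1 replaces LSM8 in the cytoplasmic ring that acts in mRNA decay. LSM4, which belongs to both rings, read 6.09, 6.08 and 5.95 on superovulated arrays and 3.42, 5.05 and 4 on synchronized arrays. The superovulated arrays agreed within 0.14 while the synchronized ones spread over 1.63, and the groups did not overlap. The difference was 1.88 ± 0.43 (SE, 3.69-fold, 95% interval 0.77 to 2.99, adjusted p = 0.280 in limma).

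LSM3, another subunit of both rings, read 5.71, 5.80 and 5.70 on superovulated arrays and 5.62, 5.83 and 5.91 on synchronized arrays. It spanned 0.29 over the 6 arrays, the least of the 8 bright genes, and its difference of -0.05 had a 95% interval of -0.27 to 0.17. That level reading held for the values as deposited: the difference was -0.90 after the second quantile normalization and -0.67 with arrays centred on bright probe sets. Synchronized array 1, which had the fewest bright probe sets, was the lowest array for LSM3 too, at 5.62. The difference between LSM4 and LSM3 was not tested. LSM1, LSM5, LSM6, LSM7 and LSM8 differed by 0.02 to 0.15, and LSM2 by -0.33, with 1 high value (3.79) on synchronized array 1. Means of these 6 genes lay between 2.59 and 3.57.

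The remaining 8 genes belong to smaller groups, and no group mean among them exceeded 3.82. SNRNP35 and SNRNP25, proteins of the U11/U12 snRNP that serves the rare minor introns, differed by -0.23 and -0.01. SNRNP35 read 2.77, 2.77 and 2.74 on superovulated arrays and 3.06, 2.77 and 3.14 on synchronized arrays. PRPF38A and PRPF38B, which act around activation of the spliceosome, differed by 0.14 and 0.04.

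PRPF18, a factor of the second catalytic step, read 3.11, 3.10 and 3.88 on superovulated arrays and 3.13, 5.21 and 3.13 on synchronized arrays, a difference of -0.46 that became 0.23 without synchronized array 2. LSM10, part of the U7 snRNP for histone mRNA ends, and LSM12 differed by -0.14 and -0.07. LSM14A is not a splicing factor but a translational repressor of cytoplasmic RNA granules. It read 3.14, 4.38 and 3.89 on superovulated arrays and 3.06, 2.98 and 3.02 on synchronized arrays (difference 0.78, adjusted p = 0.636 in limma), and its second probe set differed by -0.04, with all superovulated arrays below all synchronized ones.

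**Figure D2:**
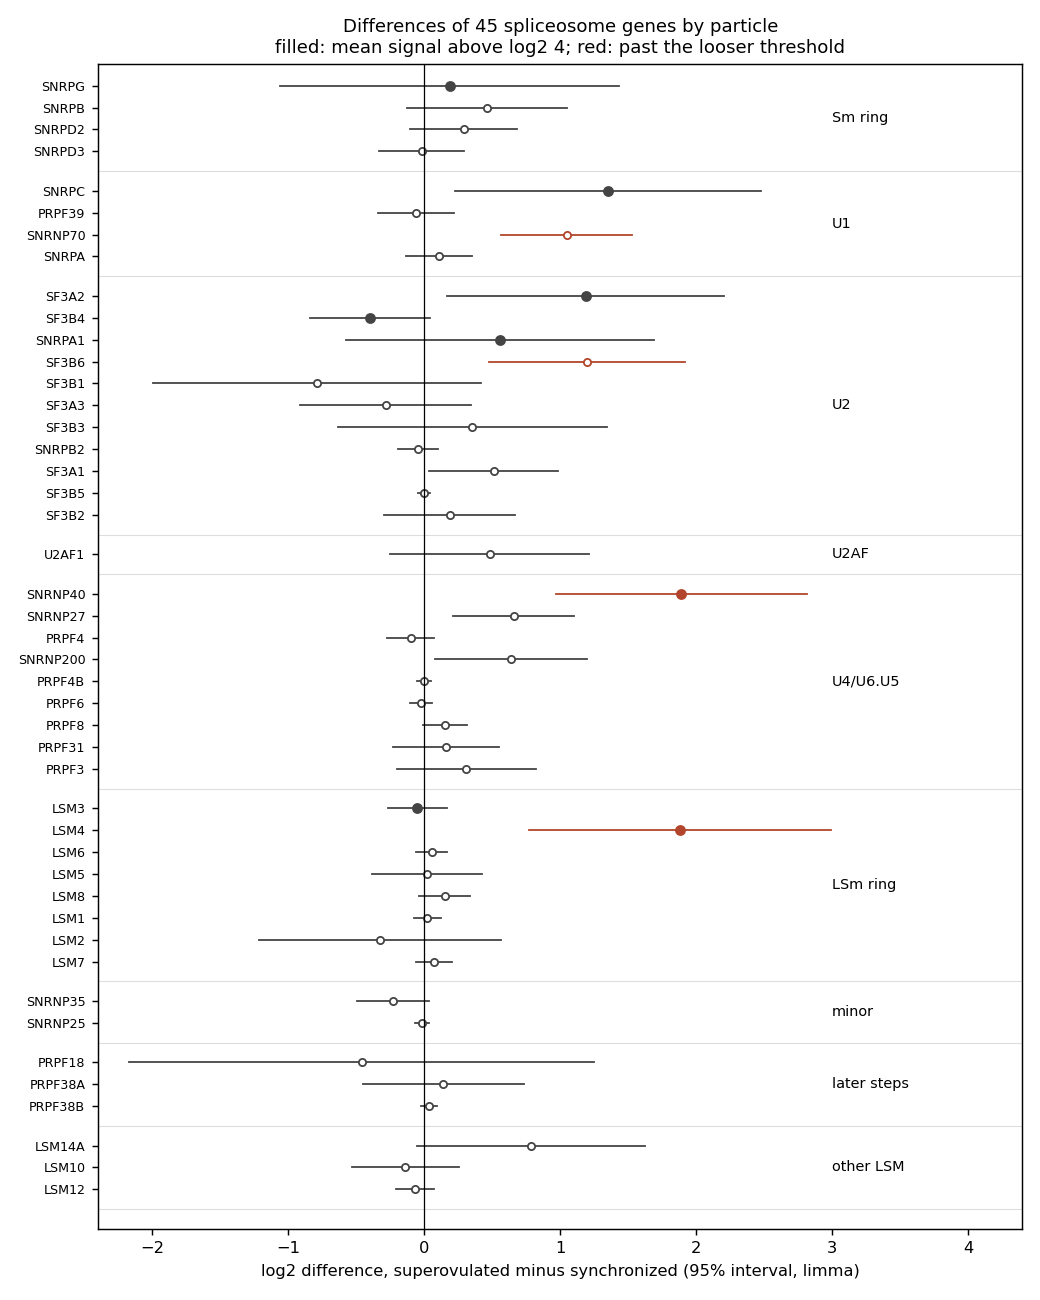
Log2 difference, superovulated minus synchronized (x axis), of the 45 genes with 95% intervals from limma, grouped by particle; filled points have a mean above log2 4 and red ones passed the looser threshold. Each of the U1, U2, U4/U6.U5 and LSm groups holds 1 red gene (SNRNP70, SF3B6, SNRNP40 and LSM4), and the intervals of only 5 further genes leave out 0 (SNRPC, SF3A2, SF3A1, SNRNP27 and SNRNP200).

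**Figure D3:**
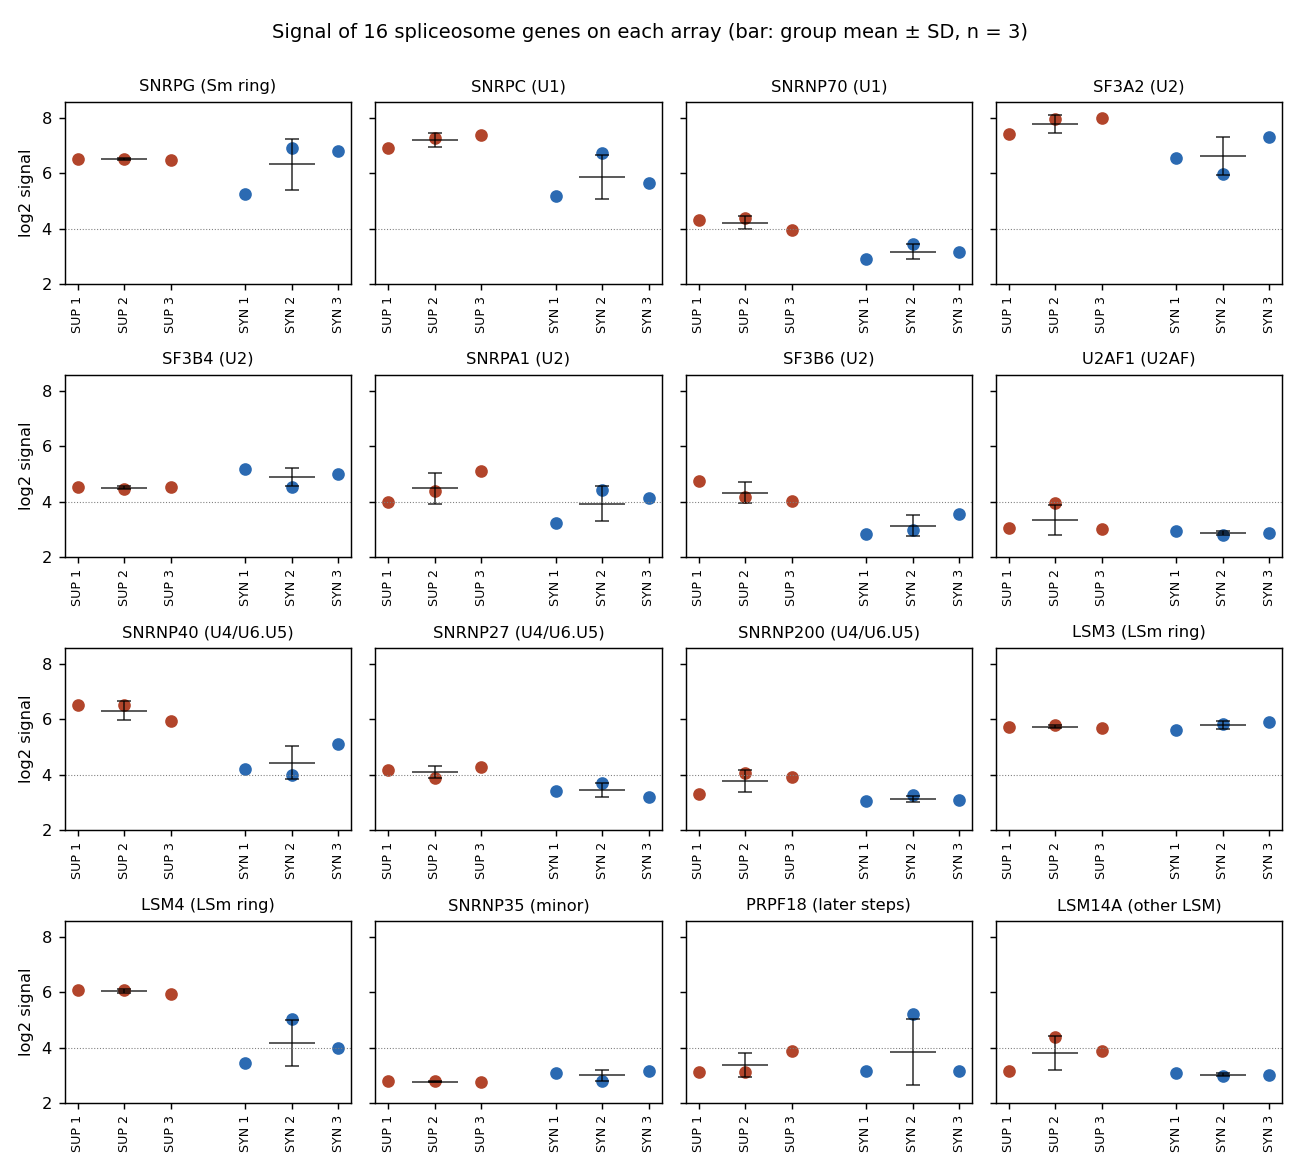
Log2 signal of 16 genes on each array (SUP, superovulated, and SYN, synchronized, replicates 1 to 3), with group means and SD (n = 3) as black bars and log2 4 as a dotted line. SNRNP40 and LSM4 lie higher on all superovulated arrays, LSM3 spans 0.29 over all 6, and SNRPG is low only on synchronized array 1.

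Which genes passed the looser threshold depended on single arrays and on the scaling. With 1 array left out at a time, SNRNP40 kept the threshold in 3 of 6 fits and SNRNP70 in 2. LSM4 kept it only without synchronized array 2 (adjusted p = 0.0547 in limma) and SF3B6 only without synchronized array 3. None of the 4 kept it without superovulated array 1, without superovulated array 2 or without synchronized array 1. After a second quantile normalization none passed, and SNRNP40 had a difference of 1.14 and an adjusted p of 0.751 in limma. When only the 1406 bright probe sets were tested, LSM4 and SNRNP40 passed an adjusted p of 0.05, 2 of 8 members (25%) beside 29.4% of those probe sets that were higher. When the 2881 probe sets above log2 4 on at least 1 array were tested, SNRNP70 and SF3B6 passed as well, but both entered through superovulated arrays alone, and 16.2% of those probe sets passed higher. With each array centred on its bright probe sets, LSM4 and SNRNP40 (4.44% of the members) again passed and SF3B1 passed with a lower value, where 1.17% of all probe sets were higher and 1.52% lower. With arrays weighted by quality, SNRNP70, LSM4 and SNRNP40 passed (6.67% of the members), where 1.9% of all probe sets were higher.

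**Figure D4:**
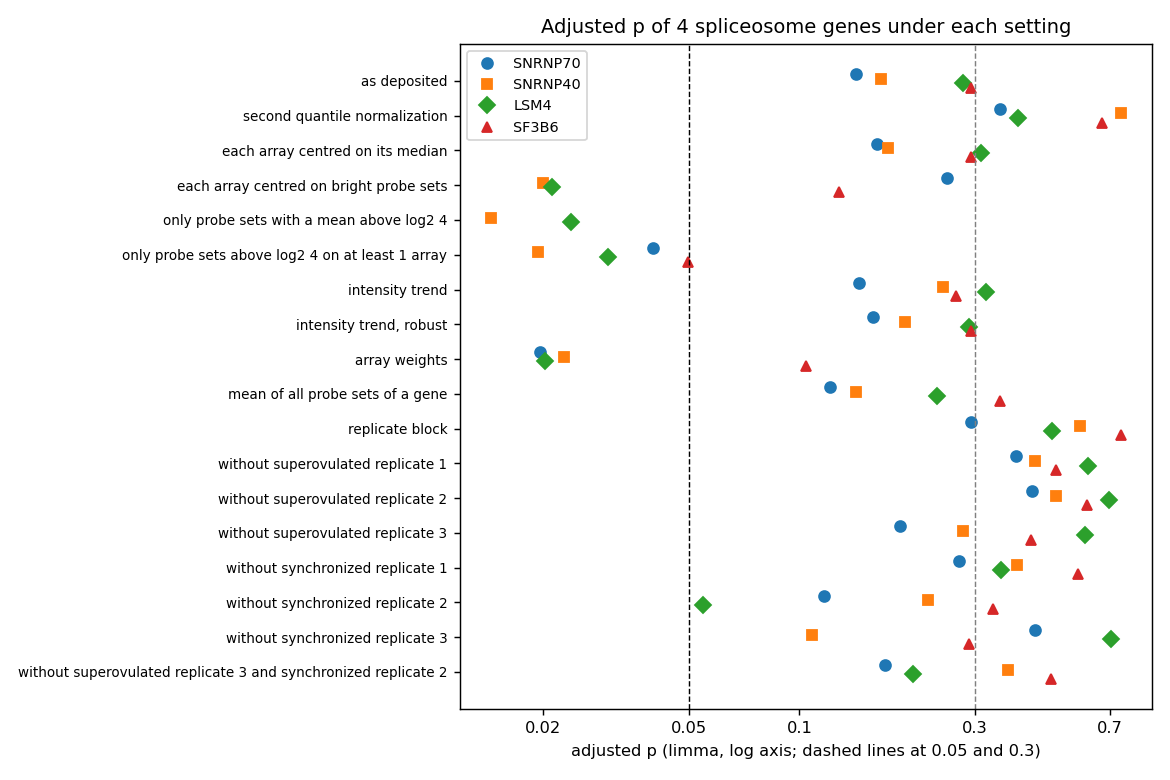
Adjusted p from limma (x axis, log scale) for SNRNP70, SNRNP40, LSM4 and SF3B6 under the values as deposited and each alternative setting; dashed lines mark 0.05 and 0.3. The points range between 0.0145 and 0.752, and those left of 0.05 come from testing fewer probe sets, centring on bright probe sets or array weights.

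Across arrays, the spliceosome genes as a body varied less than their bright members. The mean over all 45 genes was 3.68, 3.78 and 3.75 on superovulated arrays and 3.36, 3.56 and 3.50 on synchronized arrays. Over the 8 bright genes it was 5.97, 6.13 and 6.14 on superovulated arrays, against 4.83, 5.43 and 5.49 on synchronized arrays. All bright probe sets of the array averaged 5.35, 5.54 and 5.76 on superovulated arrays and 4.32, 5.41 and 4.85 on synchronized arrays, so synchronized array 1 was the lowest on both measures. The number of spliceosome genes above log2 4 was 10, 12 and 12 on superovulated arrays and 6, 9 and 8 on synchronized arrays. Signals spanned less than 0.5 over the 6 arrays in 18 genes and at least 1 log2 unit in 16.

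A smaller pattern joined 1 array of each group. Superovulated array 3 exceeded the other arrays of its group by at least 0.5 in 5 genes (PRPF18, SF3B3, SNRPA1, SNRPB and PRPF3), and synchronized array 2 did so in 6 (PRPF18, SF3B3, SF3B1, SF3A3, SNRPC and LSM4). These were 11.1% of the members on superovulated array 3, beside 4.64% of all probe sets, and 13.3% of the members on synchronized array 2, beside 7.4% of all probe sets. On superovulated arrays 1 and 2, 2 members each (4.44%) stood out in this way, beside 0.833% and 1.33% of all probe sets. Synchronized arrays 1 and 3 had 1 (2.22%) and 3 (6.67%), beside 2.74% and 1.3%. A share above that of all probe sets was therefore not particular to superovulated array 3 and synchronized array 2. PRPF18 and SF3B3 were in both sets. SF3B3, a subunit of SF3B, read 2.84, 3.39 and 4.06 on superovulated arrays and 2.75, 3.55 and 2.93 on synchronized arrays. The same arrays had the highest mean of oocyte markers in their groups. The mean of 9 measured oocyte markers was 2.96, 3.01 and 3.55 on superovulated arrays and 2.8, 4.31 and 3.12 on synchronized arrays. KPNA7, the importin of oocytes and 1 of the 2 oocyte markers with a mean above log2 4, had 5.94, 5.98 and 7.78 in the superovulated group and 4.04, 9.02 and 6.11 in the synchronized group. On superovulated array 3 the mean rested mainly on KPNA7, ZP2 (4.83, against 3.31 and 3.44) and ZP4 (4.15, against 2.68 and 2.67). GDF9, ZP3 and OOEP were not higher there, at 2.57, 2.49 and 2.36. The 11 cumulus markers averaged 3.21 to 3.86 on superovulated and 3.27 to 4.14 on synchronized arrays, and 2 of them had a mean above log2 4. Among these, TNFAIP6 read 3.05, 2.99 and 7.38 on superovulated arrays and 4.25, 8.47 and 5.96 on synchronized arrays. INHA was likewise highest of its group on superovulated array 3 (6.64) and synchronized array 2 (6.79), as were PTX3 (3.87 and 5.21) and INHBA (2.84 and 3.83). HAS2 was lowest of its group on both (3.65 and 3.44), as were CYP19A1 (3.05 and 3.06) and FSHR (2.67 and 2.71). The part of oocyte or cumulus RNA in these spliceosome signals was not tested. Without superovulated array 3 and synchronized array 2, LSM4, SNRNP70 and SNRPC passed the looser threshold, beside 1.25% of all probe sets that were higher. At 0.05, 0 genes passed, where 0% of all probe sets were higher and 0.00416% lower. This alternative was chosen after seeing the data.

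**Figure D5:**
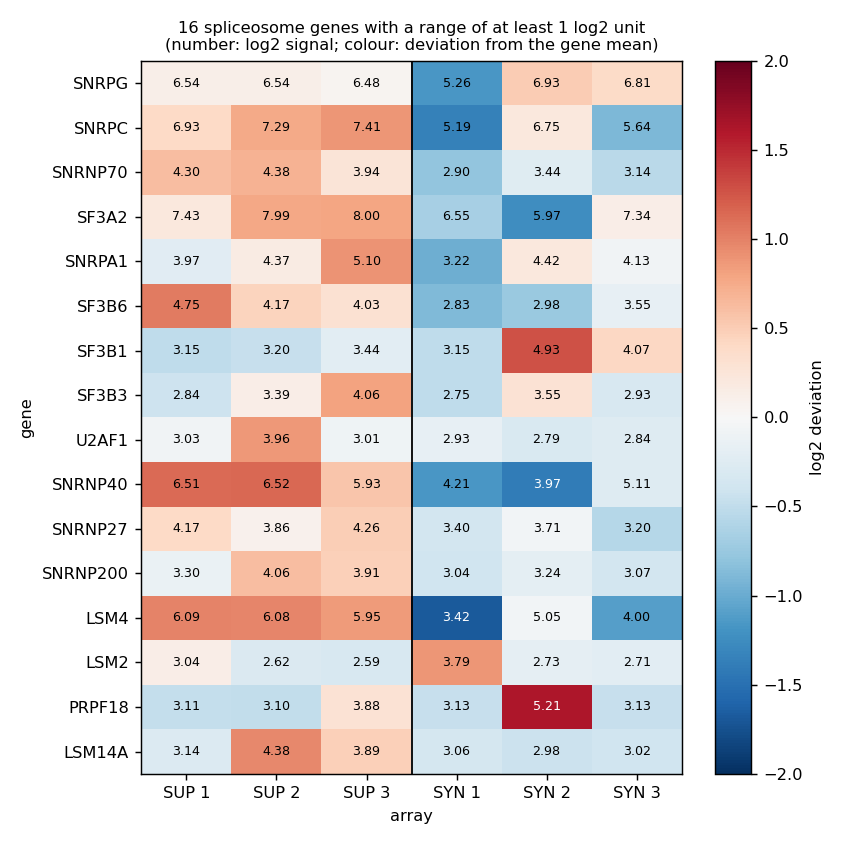
Log2 signal (number) and deviation from the gene's mean over 6 arrays (colour) for the 16 spliceosome genes that spanned at least 1 log2 unit, with superovulated arrays left of synchronized arrays. SNRNP40, SNRNP70 and SF3B6 are red on all superovulated and blue on all synchronized arrays, while PRPF18 is reddest on synchronized array 2 (5.21), with superovulated array 3 next (3.88).

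Other spliceosome genes, from a list of 86 helicases, partner proteins, assembly factors and exon junction proteins of which 65 were measured, held 3 that rose at an adjusted p below 0.05 (4.62%) and 0 that fell. The background shares are the 0.695% and 0.0208% given above, and the list's median difference was -0.01. Of the 65 genes, 9 (13.8%) had a mean above log2 4, beside 5.85% of all probe sets. When only bright probe sets were tested, 2 of these 9 (22.2%), LUC7L3 and LUC7L, were higher at 0.05, beside 29.4% of those probe sets. LUC7L3, a relative of the yeast U1 protein Luc7, read 8.09, 8.17 and 7.98 on superovulated arrays and 5.25, 5.30 and 5.86 on synchronized arrays and rose by 2.61 ± 0.18 (SE, 6.11-fold, adjusted p = 0.0190 in limma). The groups were more than 2 log2 units apart, though a second LUC7L3 probe set near background differed by 0.04. LUC7L, its paralogue, read 5.01, 5.13 and 4.77 on superovulated arrays and 3.71, 3.37 and 3.68 on synchronized arrays and rose by 1.38 (adjusted p = 0.0387 in limma). The third was PRMT5, which methylates Sm proteins before snRNP assembly, with 2.77 ± 0.07 in the superovulated and 2.37 ± 0.01 in the synchronized group, near background.

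Past the looser threshold, which 1.79% of all probe sets and 22.5% of the bright ones passed with higher values, stood 5 of the 65 (7.69%), namely both LUC7L genes with U2SURP (1.80), a U2-associated protein, PUF60 (1.41), which aids U2AF at the 3′ splice site, and RBM8A (1.54), the Y14 protein of the exon junction complex. Their synchronized means were 2.95, 3.04 and 2.50, near background, and 2 other U2SURP probe sets differed by 0.25 and -0.07. Of these 5 genes, 4 belong to the 11 measured partners of U1 and U2. The 10 helicases, 12 Prp19-complex and related factors, 12 tri-snRNP partners and 3 minor spliceosome partners had no gene past either threshold in limma, which at these background shares says little about those groups. With 1 array left out, the difference of LUC7L3 stayed between 2.50 and 2.805 and that of LUC7L between 1.275 and 1.48. In these fits at most 1 of the 65 passed 0.05, LUC7L3 without synchronized array 3 and PRMT5 without superovulated array 3. The adjusted p of LUC7L3 in them was at most 0.0872 in limma. It was 0.203 without both superovulated array 3 and synchronized array 2, and 0.164 with replicate number as a block. After the second quantile normalization, LUC7L3 differed by 1.62 with an adjusted p of 0.694 in limma.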

How the data were processed

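Total RNA of blastocysts was hybridized to 6 one-colour arrays. The deposited values are log2 expression, 1 per probe set and array, made by the authors with GCRMA (version not stated) per the submitters' processing notes; joint normalization is not stated there, and the value distributions differed between arrays (973 to 1894 probe sets above log2 4). GCRMA compresses values near background. The 112 control probe sets were left out of the tests.

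The test was limma's (3.58.1, R 4.3.3), two-sided and without a trend, for superovulated minus synchronized, with Benjamini-Hochberg adjustment over all 24016 probe sets, and 3 arrays per group limit the precision. The procedure was run on simulated data with independent noise for each probe set and no array-wide shift. That run could not test the effect of the differences in value distribution between arrays. By rule, members past a threshold, the brightest of each particle and those with a mean above log2 6 are given array by array, members between log2 4 and 6 by difference, and others by range; further array values were chosen after they were seen. Symbols came from the platform annotation, and all 45 genes matched the ARS-UCD2.0 gene table by identifier. The members and lists were chosen with earlier results of these data known. The alternatives tried were 16 planned settings and 1 added later. Probe and protein sequences were not used here.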

Additional observations from a re-analysis of the deposited data

How the results depend on the processing

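At an adjusted p of 0.05 in limma, 0 of the 45 spliceosome genes were higher and 0 lower with the values as deposited and with each array left out (0 to 0); the counts of higher genes were 2 with arrays centred on bright probe sets (1.17% of all probe sets), 2 among probe sets with a mean above log2 4 (29.4%), 4 among those above log2 4 on at least 1 array (16.2%) and 3 with array weights (1.9%), and 1 gene (SF3B1) was lower with centring on bright probe sets (1.52%). Testing fewer probe sets eases the adjustment; the cause of the other changes was not tested. The looser count of 4 (1.79% of all probe sets higher) was 0 after a second quantile normalization (0.966%) and 2 with centring on bright probe sets (1.42%). With that centring 3 others, PRPF18, SF3B1 and SF3B4, passed lower, where 3.21% of all probe sets did, against 0.104% as deposited. The count was 7 with array weights (3.68%) and 0 to 4 with 1 array left out (1.12% to 2.59%). The 3 rises among other spliceosome genes became 0 after quantile normalization and 5 among probe sets above log2 4 on at least 1 array. In the latter, PUF60, RBM8A and U2SURP entered through superovulated arrays alone. The count was 1 with an intensity trend, 1 with a robust trend, 5 with array weights and 6 with probe sets averaged per gene. It was 0 to 1 with 1 array left out. Without superovulated array 3 and synchronized array 2, a setting chosen after seeing the data, it was 0. With centring on bright probe sets 2 genes were higher (LUC7L3 and U2SURP) and 3 lower (SMN2, SMNDC1 and SNW1). In that setting LUC7L differed by 0.76 (adjusted p = 0.109 in limma), and PRMT5 turned to -0.22 (adjusted p = 0.557 in limma). The median difference of 0.11 became -0.51 with that centring, which moved the median of all probe sets from -0.02 to -0.65, 0.87 among probe sets with a mean above log2 4, 0.64 among those above it on at least 1 array, 0.07 with probe sets averaged, and 0.043 to 0.125 with 1 array, or superovulated array 3 and synchronized array 2, left out.

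Directions turned for SNRPG (-0.75 after quantile normalization, -0.435 with centring on bright probe sets, -0.35 to 0.505 with arrays left out, lowest without synchronized array 1), SNRPA1 (-0.065) and U2AF1 (-0.14) with that centring, LSM3, from -0.05 as deposited (0.088 with array weights, -0.133 to 0.012 with arrays left out, highest without synchronized array 3) and PRPF18 (-0.807 to 0.233 with arrays left out, highest without synchronized array 2). The labels do not say whether equal replicate numbers mark paired arrays. Deviations of same-numbered arrays from their group means correlated at 0.54, -0.40 and -0.41. These values cannot decide it, because deviations from a mean of 3 arrays depend on each other. With the replicate block, 1 spliceosome gene (SNRNP70) passed the looser threshold, beside 1.29% of all probe sets that were higher. In that fit 0 other spliceosome genes and 0 probe sets in all passed 0.05. Signal over background limits 37 of the 45 genes, whose means were at or below log2 4.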
